A study of Mus musculus with 4 samples.

Results

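Hyaluronan is a long, unsulfated sugar chain of the extracellular matrix. The genes described here were 10 that make it, supply it with sugar, cut it or bind it, chosen by name: the hyaluronan synthases Has1, Has2 and Has3, the precursor enzyme Ugdh, the hyaluronidases Hyal1, Hyal2 and Hyal3, the matrix proteoglycan Vcan (versican), and the receptors Lyve1 and Stab2. They were 10 of 14847 named genes at gene level and 164 of 229581 probesets at exon level. A probeset is a group of array probes that reads an exon or part of one. The receptor Cd44 was not among the members.

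The RNA came from NMuMG cells, an established epithelial line from normal mouse mammary gland, grown with fetal bovine serum and insulin. The cells received 1 ng/ml recombinant human TGF-beta1 for 24 h or were left untreated. TGF-beta is a growth factor that can move epithelial cells towards a mesenchymal form. The 4 deposited columns hold each condition once at gene level and once at exon level, both read here as summaries of the same 2 samples, so each condition had 1 array per level and nothing below has a replicate check. In total RNA from a whole culture, fewer cells of a type and less RNA per cell cannot be told apart.

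As background, the synthases are membrane enzymes that join glucuronate and N-acetylglucosamine, taken from UDP-sugars, and push the growing chain out of the cell. Hyaluronidases cut the chain at the surface and in lysosomes, and receptors and matrix proteins tether it or take it up. Mouse embryos need Has2 to form the cushions of the heart, where cells leave an epithelium and become mesenchymal.

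Of the 10 genes, Has2 was far higher with TGF-beta, and none of the others differed by 2-fold at gene level. The log2 differences of the other 9 genes, TGF-beta minus untreated on the log2(intensity + 1) scale, ran from −0.09 to 0.53 with a median of 0.23. The level rule asked that the larger intensity of a gene reach 124, the median of all gene-level values. Of the 10 genes, 6 did so (were at level): Has2, Ugdh, Hyal1, Hyal2, Hyal3 and Vcan. Has2 reached it through the TGF-beta array alone, so it could not have been at level without a difference. Of all 9159 genes at level, 2.28% had values 2-fold or more above untreated cells and 8.7% had values 2-fold or more below them, and the median difference was −0.27. Against that median, the differences of all 6 hyaluronan genes at level lay on the upper side. For the 5 besides Has2 the differences ran from −0.09 to 0.35, and 4 of the 5 were above 0, where 27.7% of all genes at level were.

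**Figure D1:**
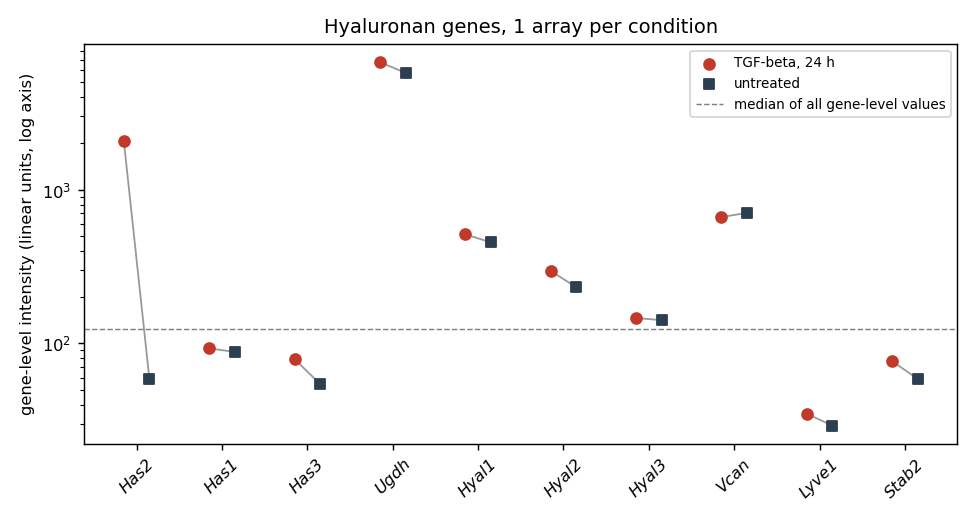
Gene-level intensity (log axis) of the 10 hyaluronan genes in the TGF-beta array (circles) and the untreated array (squares), with the median of all gene-level values as a dashed line. Has2 lies on both sides of the line, at 2081 in the TGF-beta array and 58.7 in the untreated array, while the 2 points of each other gene lie close together.

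Among the synthases, Has2 (transcript cluster 6835856) had an intensity of 2081 in TGF-beta cells, against 58.7 in untreated cells. This was a ratio of 35.5, a log2 difference of 5.12 and the highest signed difference of all 9159 genes at level. The gene next below it was the cathepsin Ctsw, with 4.72. Since the untreated value lay below the level rule, the exact size of the Has2 difference is uncertain, and with 64 added to each intensity before the log it was 4.13.

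All 6 Has2 probesets showed it. Probeset 4576039 had 4074 in TGF-beta cells against 100.7 in untreated cells, and probeset 5436085 had 1718 against 57.1. Probeset 4530172 had 1429 against 41.8, and probeset 4662496 had 1094 against 42.5. The TGF-beta values lay above the exon-level median of 265 and the untreated values below it. Probeset 5393388 had 921 in TGF-beta cells against 61.6 in untreated cells, and probeset 4577478 had 597 against 9.26. The lowest Has2 intensity in TGF-beta cells, 597, was well above the highest in untreated cells, 100.7.

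The Has2 differences had a median of 4.98 ± 0.67 (SD over 6 probesets, which here and below is a spread between probesets and says nothing of repeat cultures). They were not equal between probesets: probeset 4577478 had the largest difference, 5.86, and probeset 5393388 the smallest, 3.88. The untreated values of these 2, 9.26 and 61.6, were dim, so the sizes and the index below are uncertain. With 64 added to each intensity before the log, the median was 3.63. The splicing index, a probeset's difference minus the median of the gene's other probesets at level, was −1.18 for probeset 5393388. An index of 1 or more in size was found for 3.64% of 108360 probesets in 8038 genes. RefSeq places a long non-coding RNA, Has2os, over part of the Has2 locus. The sources used here do not state the strand of the signal, and any part of Has2os in these values was not tested.

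**Figure D2:**
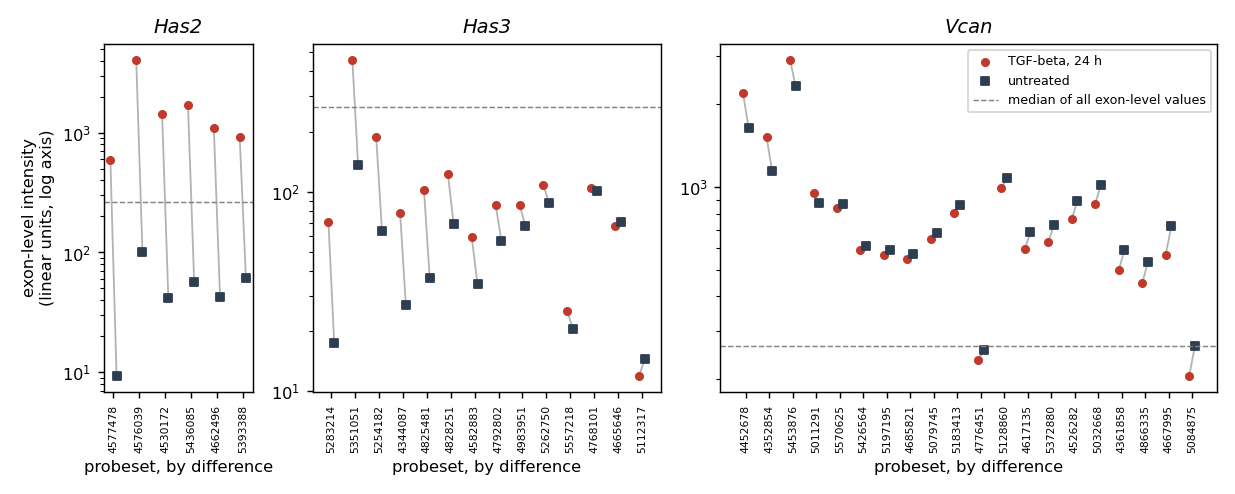
Exon-level intensity (log axes with a different range in each panel) of every probeset of Has2, Has3 and Vcan in the TGF-beta array (circles) and the untreated array (squares), ordered by difference, with the median of all exon-level values dashed. All 6 Has2 probesets are separated by at least 3.88 on the log2 scale, and those of Has3 mostly lie under the dashed line. In the deposited values shown, 3 Vcan probesets at the left are higher with TGF-beta while most others are slightly lower, a split that depended on the scaling.

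Has1 (transcript cluster 6854042) was near the lower part of the scale in both conditions, at 92.9 in TGF-beta cells and 88.1 in untreated cells. Its difference was 0.08, and −0.04 after a lowess curve of difference against mean level was subtracted (curve-corrected, below), so it has no settled direction. None of its 6 probesets was at level, and their differences ran from −0.35 to 1.03.

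Has3 (transcript cluster 6978932) had 79.1 in TGF-beta cells and 54.4 in untreated cells, also below the level rule, a difference of 0.53. Its probesets did not all say the same. Of 14, 12 were above 0, where 40.9% of all 229581 probesets were. At least 2-fold higher were 5 of the 14, beside 5.36% of all probesets, and 0 were at least 2-fold lower, beside 11.2%. But 13 of the 14 were below the level rule, where 7.56% of all probesets were 2-fold higher and 10.8% lower. Of all probesets at level 32.6% were above 0, so 40.9% is too low a comparison for a mostly dim gene. Probeset 5351051, the 1 at level, had 457 in TGF-beta cells against 136.3 in untreated cells, a difference of 1.74. Probeset 5254182 had 187.4 against 63.8, a difference of 1.54. The remaining 3 past 2-fold had at most 101.8 with TGF-beta, in the range where signal could not be told from background here. The median over all 14 probesets was 0.68 ± 0.73 (SD), so a 2-fold difference of Has3 rested on which probesets were read.

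**Figure D3:**
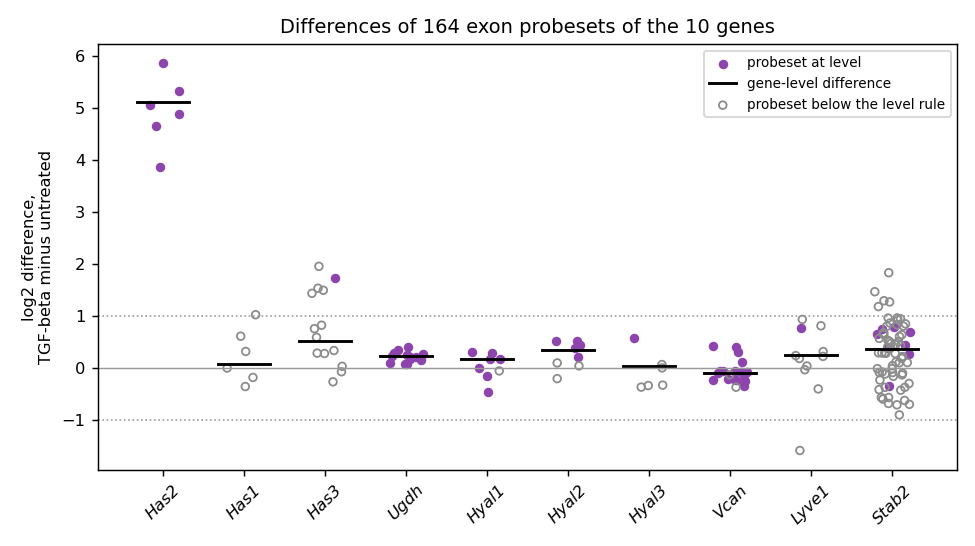
Log2 difference, TGF-beta minus untreated, of the 164 probesets of the 10 genes, with filled points for probesets at level, open points for those below the level rule and a bar for the gene-level difference. Beyond the 6 of Has2, 1 probeset at level passes the dotted 2-fold lines, that of Has3 at 1.74.

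Ugdh makes UDP-glucuronate, a precursor of hyaluronan and of the sulfated glycosaminoglycans. It was bright in both arrays (transcript cluster 6938704), with 6739 in TGF-beta cells and 5744 in untreated cells, a difference of 0.23. All 13 probesets were slightly higher, by 0.09 to 0.41 (probeset 5535184), with a median of 0.22 ± 0.10 (SD). This was the narrowest spread between probesets among the 10 genes. The difference was small, a ratio of 1.17, but it kept its sign under centring (0.50), quantile normalization (0.20) and curve correction (0.24).

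The 3 hyaluronidases lie next to each other in the mouse genome, and the acetyltransferase gene Naa80 overlaps Hyal1 and Hyal3. Hyal1, the lysosomal enzyme, had 512 in TGF-beta cells and 454 in untreated cells (0.17). Hyal2, which is anchored at the cell surface and makes the first cuts in large chains, had 296 in TGF-beta cells and 231.8 in untreated cells (0.35). Hyal3, whose part in hyaluronan turnover is less clear, had 146.4 in TGF-beta cells and 141.6 in untreated cells (0.05). All 3 thus lay within 2-fold, as most genes at level did (2.28% higher and 8.7% lower).

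The probesets of Hyal2 were the most even of the 3. All 5 at level were higher, with a median of 0.45 ± 0.12 (SD). Probeset 4496055 had the smallest difference, with 433 in TGF-beta cells and 372 in untreated cells (0.22), and the other 4 were between 856 and 1504 with TGF-beta. Of 7 Hyal1 probesets at level, 5 were above 0 and 2 below, with a median of 0.18 ± 0.28 (SD). Probeset 4598002 was the lowest of them, with 258 in TGF-beta cells against 354 in untreated cells. That probeset reached the level rule through the untreated array alone, so it had to be lower to be counted. Hyal3 had 1 probeset of 6 at level, 4930408, with 659 in TGF-beta cells against 442 in untreated cells (0.58), and 3 of its 6 were below 0. A gene-level cluster annotated to both Naa80 and Hyal1 had the same value, 574, in both arrays and was not counted for either gene. The differences of Hyal1 and Hyal2 grew to between 0.45 and 0.58 and between 0.63 and 0.73 under the 3 scalings, still short of 2-fold.

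Versican, a large chondroitin sulfate proteoglycan that binds hyaluronan through its N-terminal end, was clearly measured in both conditions. Vcan (transcript cluster 6814956) had 663 in TGF-beta cells and 706 in untreated cells, a difference of −0.09. The sign was not stable: it was 0.18 after centring, 0.27 after quantile normalization and 0.27 curve-corrected. Of its 20 probesets 18 were at level, with a median of −0.08 ± 0.23 (SD).

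Within Vcan, 4 probesets were above 0 and 16 below in the deposited values, where the median of all probesets at level was −0.23. The 3 with the largest differences were 4452678 (2193 in TGF-beta cells and 1636 in untreated cells, 0.42), 4352854 (1520 and 1143, 0.41) and 5453876 (2907 and 2326, 0.32). These 3 also had the 3 highest intensities of the gene in untreated cells, though brightness depends in part on a probeset's own sequence. The other 17 lay between 205 and 989 with TGF-beta and between 255 and 1079 untreated. Curve-corrected, the 3 ran from 0.43 to 0.61 and the other 17 from −0.12 to 0.38, so the split about 0 depended on the scaling. None reached a splicing index of 1, the largest being 0.51 for probeset 4452678. Versican has isoforms that differ in their chondroitin sulfate exons, but the probesets carry no positions here, so they were not assigned to isoforms.

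The 2 receptors are known from other cell types. Lyve1, the hyaluronan receptor of lymphatic endothelium, had 34.9 in TGF-beta cells and 29.2 in untreated cells (0.25). Stab2, a scavenger receptor by which sinusoidal endothelium clears hyaluronan from the blood, had 76.7 in TGF-beta cells and 58.8 in untreated cells (0.38). Both lay below the level rule in both arrays. The 6 measured markers of endothelial and lymphatic cells did too, at 26.0 to 98.4 in TGF-beta cells and 22.3 to 71.7 in untreated cells. Among them Prox1, a transcription factor of lymphatic endothelium, had 38.3 in TGF-beta cells and 52.2 in untreated cells (−0.44). Pecam1, Cdh5, Kdr, Tie1 and Tek were on the other side of 0, between 0.21 and 0.78, and the median of the 6 was 0.32.

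Of 11 Lyve1 probesets, 1 was at level, with 314 in TGF-beta cells and 182.8 in untreated cells (0.78), and 8 had at most 98.2 with TGF-beta. The 1 at level reached the rule through the TGF-beta array alone, so it had to be higher to be counted. Stab2 had 72 probesets, of which 8 were at level. Of these 8, 7 were above 0, where 32.6% of all probesets at level were, and the median of the 8 was 0.56 ± 0.37 (SD). Of the 7, 3 reached the level rule through the TGF-beta array alone. The probeset with the highest intensity, 4393472, had 1680 in TGF-beta cells and 993 in untreated cells. The median intensity over the 72 was 68.1 in TGF-beta cells and 51.6 in untreated cells, and 64 of the 72 lay below the level rule. The bright values of Stab2 thus came from few of its probesets. Probeset 4442691 was the 1 at level below 0, with 245.8 in TGF-beta cells against 309.9 in untreated cells (−0.33). It reached the level rule through the untreated array alone, so it had to be lower to be counted. The splicing index was taken for the 6 hyaluronan genes with 5 or more probesets at level. These had 6 such probesets for Has2, 13 for Ugdh, 7 for Hyal1, 5 for Hyal2, 18 for Vcan and 8 for Stab2. Probesets 4442691 of Stab2 and 5393388 of Has2 were the 2 whose index reached 1 in size. Both indexes were negative, and that of probeset 4442691 only just reached 1. Over all genes 3.64% of 108360 probesets did so, and the 2 are not read as a pattern. Over all 72 Stab2 probesets, the median difference was 0.30 ± 0.57 (SD), and 48 of 72 were above 0, beside 40.9% of all probesets. That share includes the probesets at level, with their 32.6%, so it is too low a comparison for a mostly dim gene. At least 2-fold higher were 5 of 72, a share near the 5.36% of all probesets and the 7.56% of those below the level rule. None of the 5 was at level.

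Over the whole set, 60 of 164 probesets were at level, where the larger of their 2 intensities reached the exon-level median. Of these, 7 were at least 2-fold higher and 0 lower. Over all 125378 probesets at level, the shares were 3.54% higher and 11.5% lower. The 7 were the 6 of Has2 and 1 of Has3. Each reached the level rule through the TGF-beta array alone, so it had to be higher to be counted, and the shares show nothing about these 7. With both intensities required to reach the median, 0 were higher. Of the 104 probesets below the level rule, 10 were at least 2-fold higher and 1 lower, beside 7.56% and 10.8% of all probesets below the rule.

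**Figure D4:**
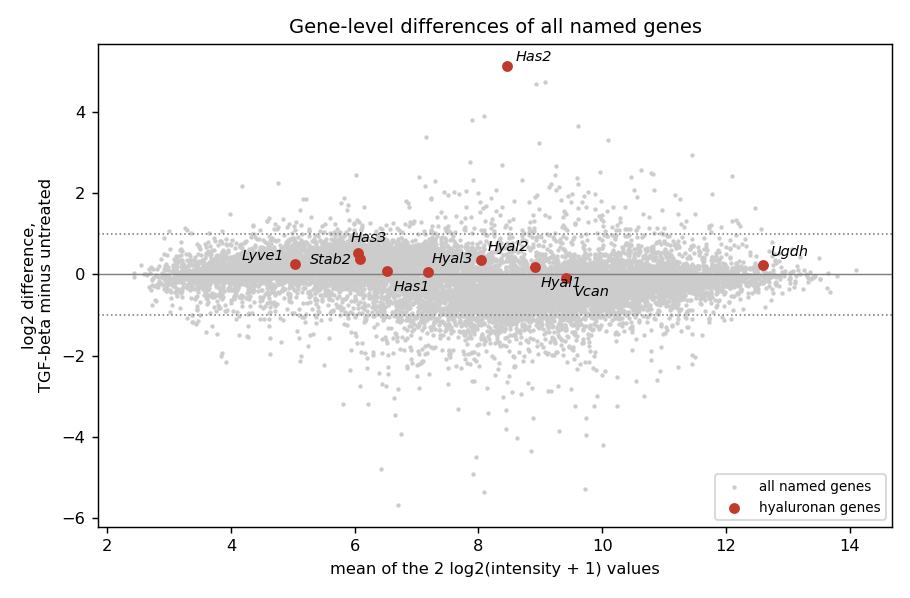
Gene-level log2 difference, TGF-beta minus untreated, against the mean of the 2 log2 intensities for all 14847 named genes (grey), with the 10 hyaluronan genes in red and the 2-fold lines dotted. Has2 is the highest point at 5.12, and the other 9 lie between −0.09 and 0.53.

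The 2 arrays held a TGF-beta response. Of 6 measured response genes, 5 were at least 2-fold higher and 0 lower, beside 2.28% and 8.7% of all genes at level. Among the 5 were fibronectin (Fn1, 7731 in TGF-beta cells and 1013 in untreated cells, 2.93) and the E-cadherin repressor Snai1 (936 and 249.7, 1.90). The others were the matricellular protein Ccn2 (1.63), the Smad co-repressor Skil (1.15) and the inhibitory Smad7 (1.09). The sixth, the matrix protein Tgfbi, had 101.0 in TGF-beta cells and 126.4 in untreated cells (−0.32). It reached the level rule through the untreated array alone. For the labelled cell type, 3 of 5 measured epithelial markers were at level. The keratin Krt19 had 578 in TGF-beta cells and 4612 in untreated cells (−2.99), with all 8 probesets lower. E-cadherin (Cdh1) had 1698 in TGF-beta cells and 4153 in untreated cells (−1.29), and the keratin Krt18 had 9785 and 8494 (0.20). Epcam, at 62.2 in TGF-beta cells and 68.5 in untreated cells, and Cldn7, at 92.7 and 88.1, lay below the level rule. Of the 8 mesenchymal markers 3 were at level, with a median of 0.65. The collagen Col1a1 had 389 in TGF-beta cells and 198.6 in untreated cells (0.97), with all 36 probesets at level higher, and passed 2-fold under each of the 3 scalings. Col1a2 had 199.9 in TGF-beta cells and 126.8 in untreated cells (0.65), and the filament protein Vim had 12991 and 12687 (0.03). Of the 5 macrophage markers, Ptprc was low, at 16.6 in TGF-beta cells and 16.9 in untreated cells, as was Adgre1, at 22.2 and 21.8. Cd68, a lysosomal protein, had 190.4 in TGF-beta cells and 316.9 in untreated cells, and the mannose receptor Mrc1 85.9 and 199.7. Csf1r lay on the other side of 0, with 78.8 and 47.7 (0.71), below the level rule in both arrays. The part of other cell types in the Has2 difference was not tested.

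Genes listed for the supply of sugar precursors differed in both directions. Of the 8 genes at level, 1 (the carrier Slc35d1) was at least 2-fold lower and 0 were higher, beside 8.7% and 2.28% of all genes at level. The other 7, all enzymes, lay within 2-fold, and the median was −0.36. Uap1, which makes UDP-N-acetylglucosamine, had 1367 in TGF-beta cells and 765 in untreated cells (0.84), and all 11 of its probesets at level were higher. Gfpt1, the entry enzyme of the hexosamine pathway, had 379 in TGF-beta cells and 710 in untreated cells (−0.90). Gnpnat1, which adds the acetyl group in that pathway, was at −0.76. Slc35d1, which carries UDP-sugars into the endoplasmic reticulum, had 321 in TGF-beta cells and 677 in untreated cells (−1.07). Steps towards the same precursor thus lay on both sides of 0. Under each of the 3 scalings Uap1 passed 2-fold and Slc35d1 no longer did, and curve-corrected they were at 1.12 and −0.67.

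Other genes of hyaluronan breakdown differed little at gene level. All 4 at level lay within 2-fold, as most genes at level did (2.28% higher and 8.7% lower), and their median was 0.02. Cemip, which binds and helps cut hyaluronan, had 162.7 in TGF-beta cells and 144.4 in untreated cells. Of its 8 probesets at level, 4 were above 0 and 4 below (SD 0.83). The surface protein Cemip2 had 818 in TGF-beta cells and 797 in untreated cells, and the lysosomal glucuronidase Gusb had 889 and 890.2. The hexosaminidase subunit Hexa was at −0.44, or −0.04 curve-corrected, where the other 3 at level lay between 0.28 and 0.37. The sperm hyaluronidase Spam1 (10.5 and 8.99) and its relative Hyal6 (13.8 and 13.5) were among the dim genes of the array.

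Other receptors and binding proteins differed widely. Of 9 at level, 1 was at least 2-fold higher and 5 were lower, beside 2.28% and 8.7% of all genes at level. Of these, Tnfaip6, Itih2 and Ambp reached the level rule through 1 array alone. The other 3 lay within 2-fold, and the median was −1.14. Habp2, a serine protease that binds hyaluronan, had 177.1 in TGF-beta cells and 1229 in untreated cells (−2.79), and all 17 of its probesets at level were lower. Tlr4, a receptor of innate immunity for which hyaluronan fragments have been described as ligands, had 225.5 in TGF-beta cells and 732 in untreated cells (−1.69). Hmmr, a hyaluronan-binding protein that also works at the mitotic spindle, was at −1.14, or −0.77 curve-corrected. The median of this list depended on the level rule and was 0.17 over all 14 measured members.

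A group of these proteins works together on hyaluronan: heavy chains such as the one from Itih2 travel in the blood bound to bikunin, the product of Ambp, and the enzyme from Tnfaip6 moves them onto hyaluronan. Tnfaip6 had 149.4 in TGF-beta cells and 26.8 in untreated cells (2.44), with its 3 probesets at level higher. Itih2 had 49.0 in TGF-beta cells and 191.6 in untreated cells (−1.95), with 10 of 11 probesets at level lower. Ambp had 70.5 in TGF-beta cells and 184.6 in untreated cells (−1.38), but 2 of its 4 probesets at level were higher. The transferase and the heavy chain therefore lay on opposite sides. Each of the 3 was under the level rule in 1 array, so it had to differ in its direction to be counted, and the sizes are uncertain. The heavy chains of Itih1, Itih3, Itih4 and Itih5 were below it in both, with 43.5 to 56.8 in TGF-beta cells and 32.3 to 46.8 in untreated cells.

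Relatives of versican and the link proteins, which lock proteoglycans onto hyaluronan, had 5 members at level. At least 2-fold higher were 0 and lower was 1, beside 2.28% and 8.7% of all genes at level, and the median was 0.40. Aggrecan (Acan) was the lower one, with 197.9 in TGF-beta cells and 449.6 in untreated cells (−1.18), or −0.81 curve-corrected. Brevican (Bcan) had 128.9 in TGF-beta cells and 80.0 in untreated cells (0.68). The link protein genes Hapln3 and Hapln2 were at 0.48 and 0.40. Bcan and Hapln3 reached the level rule through the TGF-beta array alone, and Hapln4 (−0.29) through the untreated array alone. Each of them had to differ in its direction to be counted. The median depended on the level rule and was −0.39 where both intensities had to reach it. Of 4 measured proteases that cleave versican, Adamts1 was the 1 at level, with 124.4 in TGF-beta cells and 201.5 in untreated cells (−0.69). Its TGF-beta value, 124.39, lay just under the unrounded level rule of 124.47. Adamts1 thus passed through the untreated array alone and had to be lower to be counted. The median over all 4 was 0.43.

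**Figure D5:**
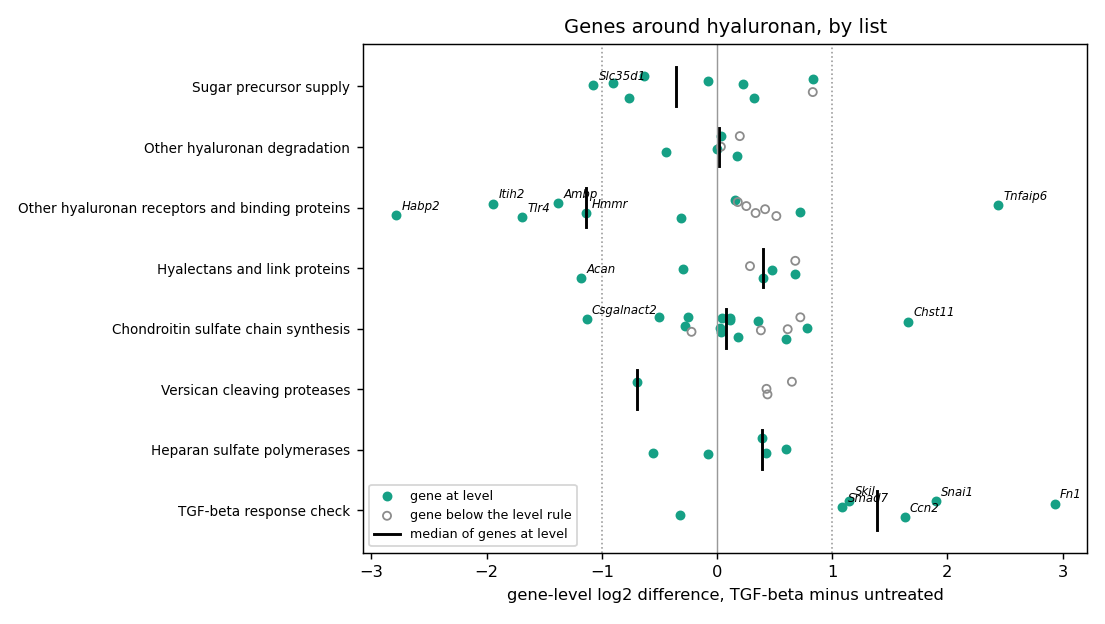
Gene-level log2 difference, TGF-beta minus untreated, of genes around hyaluronan by list (rows), with filled points at level, open points below the level rule, a bar at the median of genes at level and names for genes past the dotted 2-fold lines. The receptors and binding proteins spread from −2.79 for Habp2 to 2.44 for Tnfaip6, while all 4 genes of breakdown at level lie within 2-fold.

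RefSeq promoter windows of 300 bases (250 before to 50 after the gene's start, GRCm38.p6) matched 7 of the 10 genes: Has1, Ugdh, Hyal1, Hyal2, Hyal3, Vcan and Stab2. They were searched on both strands for fixed letters, of which 2 are printed as examples from the synthesis side. In the Has1 window (chr17:17855139-17855438, minus strand), the synthase that was dim in both arrays, capitals mark CAGAC, the core letters that Smad proteins can bind, of which it held 2 copies. In the Ugdh window (chr5:65435793-65436092, minus strand), the bright and even precursor gene, capitals mark GGGCGG or its complement, the GC box, of which it held 3 copies.
Has1: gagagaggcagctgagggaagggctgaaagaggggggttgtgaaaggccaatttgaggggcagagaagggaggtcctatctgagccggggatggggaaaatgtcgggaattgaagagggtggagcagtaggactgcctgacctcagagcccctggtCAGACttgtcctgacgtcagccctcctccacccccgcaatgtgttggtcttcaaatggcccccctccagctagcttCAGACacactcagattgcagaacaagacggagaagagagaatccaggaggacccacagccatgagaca
Ugdh: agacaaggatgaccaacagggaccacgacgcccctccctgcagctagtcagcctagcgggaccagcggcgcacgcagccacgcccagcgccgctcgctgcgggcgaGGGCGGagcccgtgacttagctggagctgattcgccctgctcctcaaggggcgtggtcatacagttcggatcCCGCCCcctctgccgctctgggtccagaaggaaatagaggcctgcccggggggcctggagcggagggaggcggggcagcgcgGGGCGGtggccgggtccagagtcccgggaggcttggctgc
CAGAC or its complement was found in 4 of the 7 windows, those of Has1, Hyal1, Hyal3 and Stab2, and in 49.6% of 32851 windows of all genes. GGGCGG was found in 5 of 7, against 35.7% of all windows, and CACCTG, an E-box that Snail and Zeb factors can bind, in 1 of 7 against 20.2%. The palindrome GTCTAGAC (0.213% of all windows), the AP-1 letters TGACTCA or TGAGTCA (5.2%) and TATAAA (13.6%) were found in 0 of the 7. These matches describe the letters of the windows only.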

How the data were processed

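RNA of TGF-beta and untreated NMuMG cells was measured on Affymetrix arrays, after biotin labelling per the labels' protocols. The values deposited by the authors are intensities on a linear scale, per transcript cluster (23332) or per probeset (229581). The sources used here do not give the software, scaling, background correction or build. No detection value was used, so dim signal and background look alike. No test was run: with 1 array for each condition, the number of arrays limits precision.

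Names came from the platform annotation, from rows with 1 symbol, updated through RefSeq (GRCm38.p6) by gene identifier, symbol or a synonym of 1 gene. Where a symbol had several clusters, the one with the highest mean was used. Intensities became log2(intensity + 1), with TGF-beta minus untreated as the difference. The level rule was the median of all values of each table (124 and 265). The size rule was a log2 difference of 1, a 2-fold change. The index needed 5 probesets at level.

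The members and lists were chosen with earlier results of these data known. Named were all members, up to 4 genes at level per list with the largest differences, Has2's neighbour in rank and each member's probeset with the largest index. Other genes and probesets were chosen after their values were seen. Alternatives were other level rules, pseudocounts of 16 and 64, centring, quantile normalization, removal of a lowess curve (span 0.3), probeset medians and a 1.5-fold rule. Scripts used Python 3.11.15, pandas 2.3.3 and statsmodels 0.14.6 and were tested on simulated data.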

Additional observations from a re-analysis of the deposited data

How the results depend on the processing

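No paired analysis was possible because each condition had 1 array per level. Gene-level counts: 1 gene higher (Has2) and 0 lower held under all alternatives, except that 0 were higher when both intensities had to reach the median, which Has2 in untreated cells does not, and 2 were higher by the median of probesets at level, where Has3 rests on 1 probeset. At exon level, the 7 higher probesets became 17 without a level rule (and 1 lower, of Lyve1), 0 with both intensities at the median, 4 with the 75th percentile as rule, 11 after quantile normalization and 12 with a 1.5-fold rule. The Has2 difference ran from 4.13 to 5.52 over 10 alternatives. These include the other level rules, which cannot change the gene-level difference of a single gene. The median of other receptors and binding proteins turned to 0.17 without a level rule and to 0.13 by probeset medians, as dim members entered. That of hyalectans and link proteins (0.40) turned to −0.39 with both intensities at the median and to −0.29 with their mean there. That of versican-cleaving proteases (−0.69, 1 gene at level) turned to 0.43 without a level rule, 0.10 after quantile normalization and 0.60 by probeset medians. Of the single gene-level differences, 86 values moved by no more than the SD of the gene's probesets and 13 by more, and of the exon-level medians 62 and 12. The 86 include the values under other level rules, which were fixed in advance to stay the same, so the count overstates stability. For genes and probesets near the median of each table, dim signal limits what can be read.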

Other observations

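Genes that build the chondroitin sulfate chains carried by versican had 14 members at level. Of these, 1 was at least 2-fold higher and 1 lower, beside 2.28% and 8.7% of all genes at level. The other 12 lay within 2-fold, and the median was 0.08. The sulfotransferase Chst11 had 1518 in TGF-beta cells and 479.6 in untreated cells (1.66), with its 4 probesets at level higher. Csgalnact2, 1 of the enzymes that start the chain, had 276 in TGF-beta cells and 607 in untreated cells (−1.13), with all 11 probesets lower. Its paralog Csgalnact1 had 460.3 in TGF-beta cells and 268 in untreated cells (0.78), with all 7 probesets higher. The paralogs thus lay on opposite sides of 0. After a lowess curve of difference against mean level was subtracted, Csgalnact1 was at 1.18 and Csgalnact2 at −0.73, so Csgalnact1 passed 2-fold and Csgalnact2 did not. B4galt7, which adds a sugar of the linker to the core protein, was at 0.60.

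The polymerases of heparan sulfate, which draw on the same UDP-glucuronate as hyaluronan, lay within 2-fold in all 5 cases, and their median was 0.39. Most genes at level did so too, with 2.28% at least 2-fold higher and 8.7% lower. Ext1 had 4065 in TGF-beta cells and 2678 in untreated cells (0.60), and all 20 of its probesets were higher. Extl1 and Extl3 were at 0.43 and 0.39, and Extl1 reached the level rule through the TGF-beta array alone. Extl2 was at −0.56, or −0.15 after that subtraction, with all 8 probesets at level lower.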
